A study of Mus musculus with 20 samples.

Results

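The comparison set 4 mouse hearts taken 2 weeks after a sham operation against 4 hearts taken at the end of tamoxifen treatment, 8 of the 20 hearts of the series. The labels assign each heart to its stage and genotype, and each stage held 2 control and 2 CKO hearts. All mice were C57BL/6 and carried floxed alleles of Wnt5a, the gene of a secreted Wnt ligand. CKO mice also carried a Cre recombinase joined to part of the oestrogen receptor (Esr1) under the promoter of Myh6, a myosin gene of cardiac myocytes, so that tamoxifen should let Cre cut the floxed alleles in heart muscle cells only. Other heart cells keep Wnt5a in such a model. At the end of tamoxifen the unoperated hearts were control hearts 22 and 23 and CKO hearts 21 and 24. Control hearts 12 and 16 and CKO hearts 14 and 15 had a sham operation, in which the chest is opened without narrowing the aorta, and were taken 2 weeks later. Age, sex, tamoxifen dose, the interval from tamoxifen to surgery and whether controls received tamoxifen in the same way are not given in the labels. By their labels the 2 stages differ in time since tamoxifen and in surgery. They may also differ in age, harvest and handling, and all these cannot be told apart. Sham hearts at 4 weeks, control hearts 6 and 7 and CKO hearts 4 and 8, are given beside them where levels are described.

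Immediate early genes are the first genes that a cell transcribes after a stimulus, without new protein synthesis. Many encode transcription factors, such as Fos, Jun and Egr1, and others encode brakes on the same signal, such as the phosphatase Dusp1 and the mRNA-destabilising protein Zfp36. Their transcripts are made and degraded fast. Cardiac fibroblasts are the cells that make most of the collagen of the heart, and glucocorticoids and stress signals act on many heart genes, among them Ddit4 and Cdkn1a.

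Levels are FPKM, the fragments of a gene divided by its length and by the size of the library, and differences are log2 differences of FPKM + 0.5, sham at 2 weeks minus end of tamoxifen, averaged over the genotypes, with the standard error (SE) of a limma fit over all 20 hearts. The threshold was a Benjamini-Hochberg adjusted p under 0.05. Each library is labelled as its own heart. The 8 tables summed to 627924 to 713671 FPKM, listed 14860 to 15276 genes above 0, and had a relative depth of 0.904 to 1.07. Absolute depth is unknown. Defining genes of heart muscle were abundant in all 8, with Myl2 at 32794 to 41365 FPKM and Myh6 at 4226 to 5316 FPKM. Some samples held more atrial tissue than others. Myl7, the atrial myosin light chain, was 372 FPKM in sham heart 14, 323 in end-of-tamoxifen heart 21, 50.6 in heart 24 and 32.2 in heart 16, and at most 1.07 FPKM in the other 4. The 15 atrial genes in the table summed to 2035 FPKM in heart 14 and 1857 in heart 21, against 779 to 954 in the other 6, so each stage held 1 CKO heart with much atrial RNA. The effect of leaving out hearts 14 and 21 is given with the counts and beside the groups of genes, and the part of atrial tissue in the results was not tested.

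The genotype check came first. Esr1, part of the transgene, stayed between 0.138 and 0.465 FPKM in controls and reached 548 to 906 FPKM in CKO hearts. Wnt5a was 2.82 and 2.56 FPKM in end-of-tamoxifen controls, 1.61 and 2.33 in CKO hearts 21 and 24, 2.55 and 3.06 in sham controls, and 1.76 and 2.11 in sham CKO hearts 14 and 15. Its level did not separate the stages, with a log2 difference of 0.02 (SE 0.15, limma adjusted p = 0.96), and that of Esr1 was 0.07 (SE 0.21, adjusted p = 0.90). The sign of both differences turned when single hearts were left out.

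Several genes that answer fast to stress and growth signals were lower 2 weeks after sham, led by the transcription factors Fos and Egr1. A few genes of fibroblasts and matrix, among them 3 collagens, were lower by less. A smaller set was higher, with the largest log2 differences for Ddit4, Rtn4r and Cdkn1a. Of 12589 genes tested, 115 passed (0.913%), 47 of them higher (0.373%) and 68 lower (0.54%). The falls were larger than the rises. The median log2 difference was -0.69 over the 68 lower genes, 21 of which passed a 2-fold change, and 0.40 over the 47 higher genes, 6 of which did. For 64 of the 68 lower and 45 of the 47 higher genes the 4 hearts of one stage did not overlap the 4 of the other. Within each genotype the stages did not overlap for 65 lower and 46 higher called genes. By this within-genotype measure the same held for 1061 lower and 1029 higher of all 12589 genes. For the measure over all 8 hearts no share of all genes is given. Calls rest on the difference between these same hearts, so the separation is no separate support. The change had the same sign in both genotypes for 67 of the lower and all 47 of the higher genes. Because the calls were made on the average over the genotypes, the selection favours such agreement, which is no separate support. At an unadjusted p under 0.05, 1028 genes (8.17%) were higher and 939 (7.46%) lower, and the median over all genes tested was -0.0006.

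The number of calls rested on every one of the 8 hearts. It was 35 without sham heart 12, 49 without 14, 31 without 15 and 16 without 16. It was 42 without end-of-tamoxifen heart 21, 24 without 22, 18 without 23 and 28 without 24. A fit of these 8 hearts alone called 5 genes. The 12 genes that passed in all 8 fits without 1 heart were Fos, Btg2, Zfp36, Hes1, Plk2, Bmp4, Prdm1, Dll4, Abca8a, Snora3, Rbp7 and Fam107a. Without both atrial-rich hearts, 14 and 21, 24 genes passed, 13 of them among the 115: Fos, Egr1, Btg2, Zfp36, Junb, Ier2, Dusp1, Cyr61, Hes1, Plk2, Prdm1, Snora3 and Gtf2f1. With log2 Myl7 as a covariate 76 passed, 75 of them among the 115. Under quantile normalization the split was 29 higher and 65 lower.

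**Figure D1:**
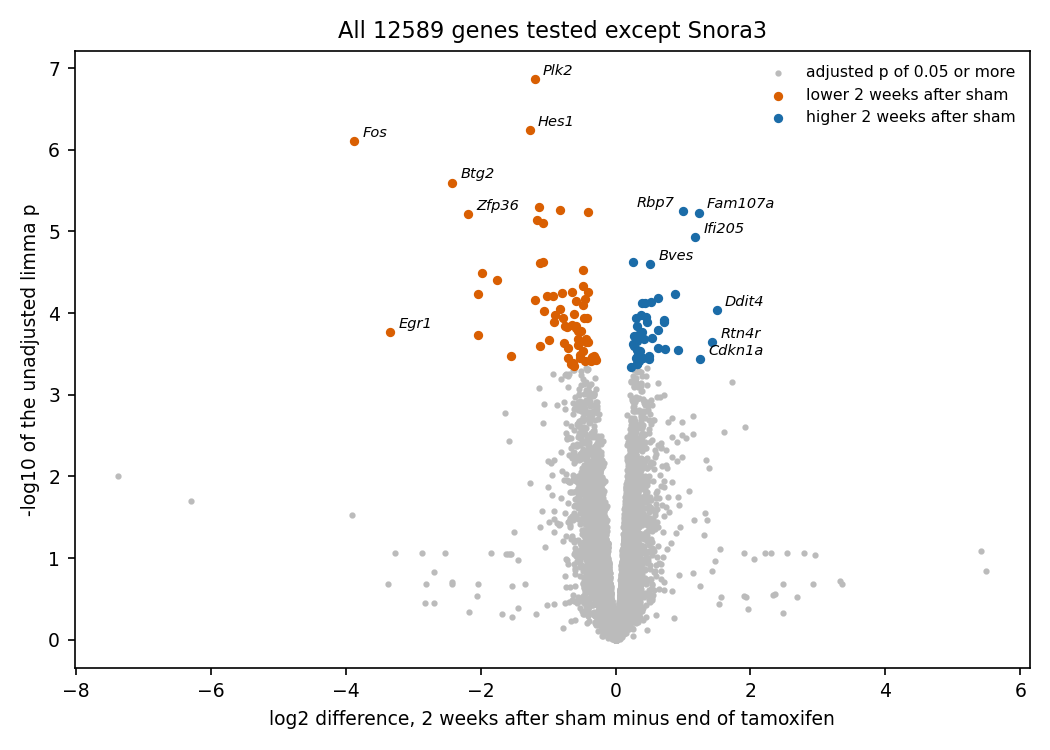
Log2 difference (x axis, 2 weeks after sham minus end of tamoxifen) against -log10 of the unadjusted limma p (y axis) for each gene tested except Snora3, with genes past an adjusted p of 0.05 in colour (orange lower, blue higher). The named points show that the falls of Fos, Egr1, Btg2 and Zfp36 reached further than any called rise, the largest being that of Ddit4 at 1.498.

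Promoters are shown for 4 of the immediate early genes that fell, chosen because they hold examples of sites that serum and cyclic AMP signals are known to use. Each line gives the 250 bases before the transcription start, 5′ to 3′ on the gene's own strand, from RefSeq on GRCm38.p6. Capitals mark the motifs searched on both strands: the cyclic AMP response element TGACGTCA, its core TGACG (which the full element contains), the CArG box of serum response factor, and TATAAA. The windows are chr12:85473640-85473889 on the plus strand for Fos, and on the minus strand chr1:134079156-134079405 for Btg2, chr7:28379229-28379478 for Zfp36 and chr17:26508473-26508722 for Dusp1.
Fos: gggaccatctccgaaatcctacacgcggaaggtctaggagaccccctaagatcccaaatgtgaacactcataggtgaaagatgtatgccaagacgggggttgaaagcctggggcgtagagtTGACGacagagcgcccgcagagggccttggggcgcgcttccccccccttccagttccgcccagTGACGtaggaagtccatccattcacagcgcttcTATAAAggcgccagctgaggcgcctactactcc
Btg2: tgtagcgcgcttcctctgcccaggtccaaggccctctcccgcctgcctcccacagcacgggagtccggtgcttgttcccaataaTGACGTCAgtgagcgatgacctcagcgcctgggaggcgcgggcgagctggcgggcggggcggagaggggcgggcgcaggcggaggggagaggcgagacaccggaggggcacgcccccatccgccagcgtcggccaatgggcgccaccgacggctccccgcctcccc
Zfp36: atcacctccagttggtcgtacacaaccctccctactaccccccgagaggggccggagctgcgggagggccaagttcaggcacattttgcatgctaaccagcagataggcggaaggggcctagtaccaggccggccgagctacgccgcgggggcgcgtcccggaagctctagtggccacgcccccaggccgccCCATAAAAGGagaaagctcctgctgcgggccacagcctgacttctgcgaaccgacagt
Dusp1: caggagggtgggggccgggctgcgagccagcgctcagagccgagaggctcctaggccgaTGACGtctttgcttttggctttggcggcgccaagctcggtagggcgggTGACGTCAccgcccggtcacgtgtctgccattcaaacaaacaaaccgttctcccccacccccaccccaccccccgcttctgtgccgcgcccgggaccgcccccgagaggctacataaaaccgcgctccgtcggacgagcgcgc
Fos holds cores that start 129 and 66 bases before the start and TATAAA at 33 bases. Btg2 holds the full element at 166 bases and Dusp1 at 143 bases, with a further core in Dusp1 at 191 bases. Zfp36 holds a CArG box at 58 bases. Of the 24 immediate early genes tested, 20 had a promoter in the table. The full element was in 3 of the 20, the core in 13, the CArG box in 2 and TATAAA in 2. Of the 6 called genes with a promoter, 2 held the full element, 4 the core, 1 the CArG box and 1 TATAAA. Junb, not shown, held 1 core, and Jun, not shown, none of the motifs. Over all 32851 promoter windows the shares were 1.55%, 17.8%, 1.47% and 12.4%. These shares are per window, while a listed gene with several starts was counted if any of its windows held the motif. These matches describe letters and do not show that a factor was bound.

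Among the transcription factors of the immediate early list, Fos changed most. Fos, a subunit of the AP-1 factor, was 47.4 and 102 FPKM in end-of-tamoxifen controls 22 and 23, and 33.3 and 85.3 in CKO hearts 21 and 24. After sham it was 2.83 and 2.89 FPKM in controls 12 and 16, and 8.25 and 2.55 in CKO hearts 14 and 15. All 4 end-of-tamoxifen hearts lay above all 4 sham hearts, with means of 67.0 ± 32.0 and 4.13 ± 2.75 FPKM (SD, n = 4 each). The log2 difference was -3.88 (SE 0.46, limma adjusted p = 0.0025). At 4 weeks after sham Fos was 1.19 to 4.06 FPKM, within the range at 2 weeks or below it.

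Egr1, a zinc finger factor, was 108 and 194 FPKM in end-of-tamoxifen controls, and 67.8 and 178 in CKO hearts 21 and 24. After sham it was 5.15 and 6.25 FPKM in controls, 57.3 in CKO heart 14 and 10.6 in CKO heart 15. Heart 14 lay close to the lowest end-of-tamoxifen heart, without overlap. The log2 difference was -3.34 (SE 0.66, limma adjusted p = 0.034). Egr1 passed in 1 of the 8 fits without 1 heart, the one without heart 14, and its adjusted p reached 0.12 in the others.

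Junb and Jun, further AP-1 subunits, also fell. Junb went from 38.4 to 104 FPKM across the end-of-tamoxifen hearts to 12.6, 12.9, 34.8 and 7.95 in sham hearts 12, 16, 14 and 15, a log2 difference of -2.04 (SE 0.40, limma adjusted p = 0.036). Jun was 33.3 to 63.6 FPKM and then 17.9 to 27.2 FPKM, a log2 difference of -1.11 (SE 0.23, adjusted p = 0.039). Each passed in 1 of the 8 fits without 1 heart, Junb in the one without 14 and Jun in the one without 21. Ier2, a nuclear protein, was 39.0 to 86.0 FPKM at the end of tamoxifen and 10.05, 10.7, 25.9 and 11.9 after sham in hearts 12, 16, 14 and 15. Its log2 difference was also -2.04 (SE 0.36, adjusted p = 0.026), and the call was lost without heart 12, 15, 16, 23 or 24.

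The feedback genes of the list moved with the factors. Btg2, an antiproliferative protein that promotes removal of mRNA tails, was 104, 191, 66.0 and 172 FPKM in hearts 22, 23, 21 and 24. After sham it was 20.7, 21.2, 37.3 and 15.6 FPKM in hearts 12, 16, 14 and 15. The stages did not overlap, and the log2 difference was -2.42 (SE 0.32, limma adjusted p = 0.0064). Zfp36, which binds AU-rich mRNAs and speeds their decay, was 61.4 to 138 FPKM and then 14.0 to 33.1 FPKM, a log2 difference of -2.19 (SE 0.31, adjusted p = 0.0071). Dusp1, which dephosphorylates MAP kinases, was 165, 248, 130 and 228 FPKM at the end of tamoxifen. Sham controls had 42.9 and 47.6 FPKM, with 101 in heart 14 and 43.0 in heart 15. Its log2 difference was -1.76 (SE 0.30, adjusted p = 0.024), lost without heart 12, 15, 16, 23 or 24.

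In all, 8 of the 24 immediate early genes tested passed, every one lower, where 0.54% of all genes were called lower. At an unadjusted limma p under 0.05, 9 were lower and 3 higher, against 7.46% and 8.17% of all genes. The list's median log2 difference was -0.50, against -0.0006 over all genes, and it was -0.69 in control and -0.24 in CKO hearts. The 8 genes varied together between hearts of 1 stage. End-of-tamoxifen hearts 23 and 24 lay above 21 and 22 in all 8, and heart 14 was the highest sham heart in 7 of 8. The order did not follow genotype, since each pair held 1 control and 1 CKO heart. All 4 sham hearts at 4 weeks lay below the lowest end-of-tamoxifen heart in 8 of 8, and the 8 hearts with pressure overload did so too in 4 of 8. No 4-week change from 2 weeks passed in the 8, with log2 differences of -0.62 to 0.13 and a smallest adjusted p of 0.54. The number called was 7 without heart 14 and 6 without 21, but 5 without 22, 3 without each of 12, 15, 16, 23 and 24, and 0 in the fit of the 8 hearts alone. Without both 14 and 21 it was 8, Jun not among them (adjusted p = 0.077), and with the Myl7 covariate 8.

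**Figure D2:**
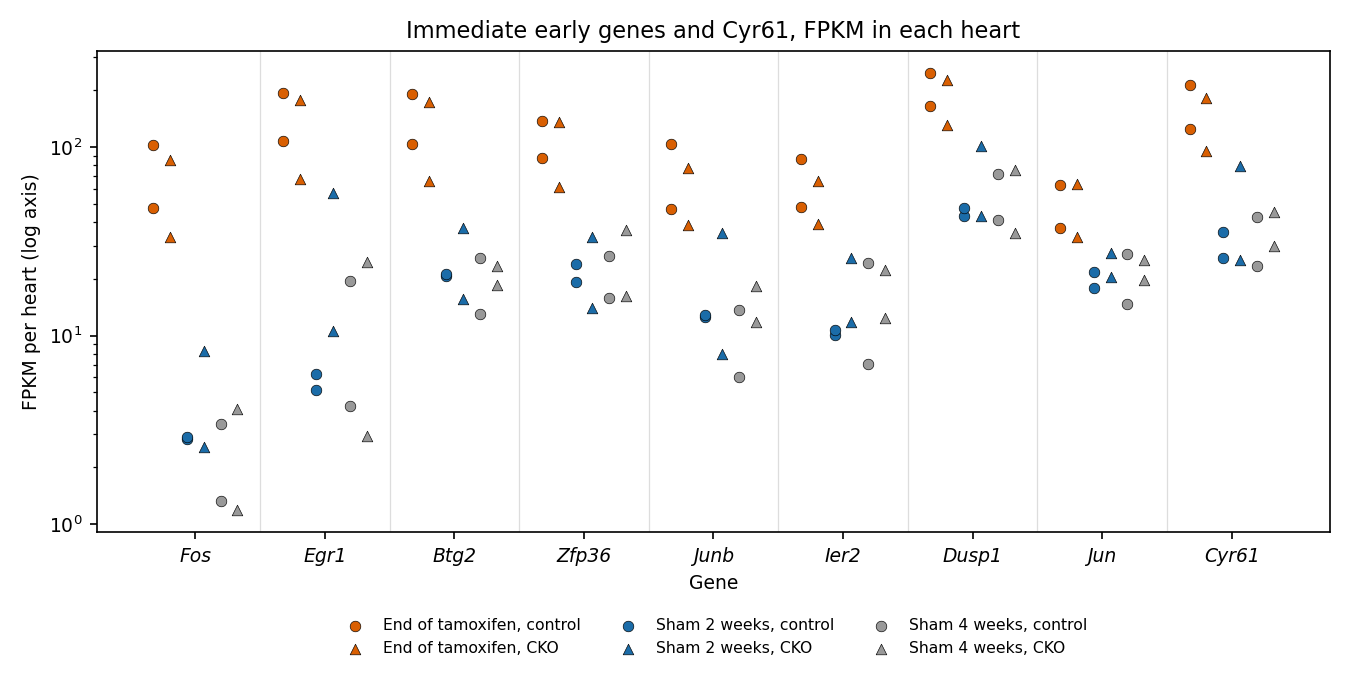
FPKM in each heart (y axis, log scale) for the 8 immediate early genes called lower and for Cyr61 (x axis), with circles for control and triangles for CKO hearts, orange at the end of tamoxifen, blue 2 weeks and grey 4 weeks after sham. Orange points lie above the blue ones in every gene, the blue triangle of heart 14 is the highest sham point at 2 weeks in all except Jun among the 8, and the grey points share the range of the blue ones or lie near it.

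Other members of the same list did not pass. Nr4a1, an orphan nuclear receptor, was 46.6, 111, 22.6 and 142 FPKM in hearts 22, 23, 21 and 24 and 24.5, 22.7, 68.3 and 23.3 FPKM in hearts 12, 16, 14 and 15, so the stages overlapped (log2 difference -1.05, SE 0.54, limma adjusted p = 0.36). Its relative Nr4a3 went the other way, at 0.147 to 0.754 FPKM and then 0.869 to 6.14 FPKM, without overlap (1.39, SE 0.45, adjusted p = 0.15). Atf3 ranged over 3.28 to 38.6 FPKM at the end of tamoxifen and 6.67 to 12.2 FPKM after sham (-0.53, SE 0.62, adjusted p = 0.72). Egr2 was 15.0 FPKM in sham heart 14 against 0.255 to 0.529 in the other 3, and 0.984 to 4.17 FPKM at the end of tamoxifen (-0.48, SE 0.66, adjusted p = 0.76). Heart 14 held the highest sham value for Egr2, Nr4a1 and Atf3 too.

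Cyr61 (now Ccn1), a matricellular protein and target of the co-activator YAP, fell with the early genes. It was 124, 213, 94.8 and 182 FPKM in hearts 22, 23, 21 and 24. After sham it was 25.9, 35.4, 79.2 and 25.1 FPKM in hearts 12, 16, 14 and 15. As for Dusp1, heart 14 was the highest sham heart and the stages did not overlap (log2 difference -1.98, SE 0.33, limma adjusted p = 0.020, lost without heart 12, 16, 23 or 24). It was the 1 member of 20 YAP and TEAD targets that passed, where 0.54% of all genes were called lower. Ctgf, a further target, was 43.4 to 86.3 FPKM and then 23.1 to 45.7 FPKM (-0.91, adjusted p = 0.14), and the median of the list was -0.11.

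Among other falls, Hes1 differed little between hearts of a stage. Hes1 (chr16:30064384-30067796, plus strand), a Notch target and repressor, was 29.6, 33.3, 27.0 and 32.4 FPKM in hearts 22, 23, 21 and 24, and 13.2, 12.9, 11.4 and 11.8 FPKM in hearts 12, 16, 14 and 15. Heart 14, high for the early genes, was the lowest for Hes1. The log2 difference was -1.27 (SE 0.15, limma adjusted p = 0.0024). Dll4, a Notch ligand of endothelial cells, was 9.60 to 13.3 FPKM and then 4.96 to 7.10 FPKM (-0.83, SE 0.12, adjusted p = 0.0071). Hes1 and Dll4 were also among the 5 genes called when the 8 hearts were fitted alone. Without hearts 14 and 21 the adjusted p of Hes1 was 0.014 and that of Dll4 0.073.

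Plk2 (chr13:110395046-110400844, plus strand), a stress-induced kinase, had the smallest p apart from Snora3. It was 24.1, 31.1, 24.3 and 23.7 FPKM in hearts 22, 23, 21 and 24, and 12.4, 10.3, 9.67 and 11.3 FPKM in hearts 12, 16, 14 and 15. Both genotypes fell by a similar amount, -1.24 in controls and -1.16 in CKO hearts on the log2 scale, and the genotype-averaged difference was -1.20 (SE 0.12, limma adjusted p = 0.00085). At 4 weeks after sham Plk2 was 10.1 to 14.5 FPKM.

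Bmp4, a ligand of the bone morphogenetic protein family, was 3.33, 5.27, 6.49 and 5.66 FPKM in hearts 22, 23, 21 and 24 and 1.81 to 2.13 FPKM in the 4 sham hearts (log2 difference -1.17, SE 0.17, limma adjusted p = 0.0075). At 4 weeks it was 2.55 to 4.18 FPKM, above the hearts at 2 weeks, a change that did not pass (0.62, adjusted p = 0.15). Edn1, the vasoconstrictor endothelin 1, was 5.05 to 6.90 FPKM and then 1.84 to 3.48 FPKM (-1.08, SE 0.17, adjusted p = 0.018, lost without heart 12, 23 or 24). Tnf, the inflammatory cytokine, was low at both stages, at 1.01 to 1.26 FPKM and then 0.0900 to 0.468 FPKM (-1.12, SE 0.18, adjusted p = 0.018, lost without heart 15, 16 or 23). Without hearts 14 and 21 none of these 3 passed, with adjusted p of 0.086 for Bmp4, 0.0995 for Edn1 and 0.054 for Tnf. Edn1, Tnf, Dll4 and Prdm1 lie outside the rule by which genes were chosen for naming and were picked after their values were seen.

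Prdm1, a transcriptional repressor, was 1.18 to 1.97 FPKM and then 0.325 to 0.454 FPKM (log2 difference -1.13, SE 0.16, limma adjusted p = 0.0071). Dact1, an intracellular regulator of Wnt signalling, was 2.98, 4.01, 3.56 and 4.04 FPKM at the end of tamoxifen and 1.23 to 1.67 FPKM after sham (-1.08, SE 0.16, adjusted p = 0.0077, lost without heart 23). Of 24 measured genes in a list of Wnt ligands, receptors and targets that does not hold Dact1, 0 passed in limma, with 4 lower and 1 higher at an unadjusted p under 0.05, and the median was -0.05. Over all genes 7.46% were lower and 8.17% higher at that threshold. Txnip, an inhibitor of thioredoxin and of glucose uptake, was 295 to 424 FPKM and then 264 in heart 12 and 116 to 148 FPKM in the other 3 sham hearts (-1.19, SE 0.21, adjusted p = 0.026, lost without heart 15, 16, 21, 22, 23 or 24). Otud1, a deubiquitinase, was 18.1 to 40.6 FPKM and then 8.16 to 10.5 FPKM (-1.55, SE 0.33, adjusted p = 0.044), with heart pair 23 and 24 again the higher one, and passed in 1 fit without a heart, that without 21. Without both 14 and 21 Prdm1 passed (adjusted p = 0.040), while Dact1 (0.0504), Txnip (0.12) and Otud1 (0.088) did not.

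A few collagen and fibroblast genes were also lower, with smaller differences. Of 34 collagen and collagen-synthesis genes measured, 3 passed, all lower, and 19 were lower at an unadjusted p under 0.05 against 1 higher. Over all genes 0.54% were called lower, and 7.46% were lower and 8.17% higher by the unadjusted measure. The list's median log2 difference was -0.30. Of 20 fibroblast genes, 2 passed and 10 were lower at the unadjusted threshold, with a median of -0.31. Among 47 matrix glycoproteins, proteoglycans and modifiers 1 passed, with 14 lower and 2 higher unadjusted and a median of -0.20. In whole tissue, fewer cells of a type and less RNA per cell cannot be told apart.

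Col5a1 (chr2:27886425-28039514, plus strand), a chain of the collagen that nucleates fibrils, was 8.19, 8.81, 8.55 and 11.1 FPKM in hearts 22, 23, 21 and 24. After sham it was 5.35, 5.14, 4.97 and 5.85 FPKM in hearts 12, 16, 14 and 15, a log2 difference of -0.72 (SE 0.14, limma adjusted p = 0.033). The type VI chains Col6a1 and Col6a2 went from 34.6 to 42.8 and 32.8 to 43.0 FPKM to 21.7 to 27.2 and 21.7 to 24.7 FPKM, with log2 differences of -0.63 and -0.67 (SE 0.14 each, adjusted p = 0.047 each). For these 3 genes the stages did not overlap. Col1a1, Col3a1, Col1a2 and Col5a2 did not pass, although their stages did not overlap either. Col1a1 was 21.2 to 34.6 FPKM and then 14.4 to 16.2 FPKM (-0.70, SE 0.21, adjusted p = 0.14), and Col3a1 was 82.4 to 114 FPKM and then 52.2 to 71.5 FPKM (-0.61, SE 0.15, adjusted p = 0.082). Col1a2 was 33.6 to 45.7 and then 20.5 to 27.6 FPKM (-0.60, SE 0.14, adjusted p = 0.074), and Col5a2 9.27 to 12.0 and then 7.00 to 7.55 FPKM (-0.44, SE 0.10, adjusted p = 0.0504).

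Pdgfra, a growth factor receptor that marks cardiac fibroblasts, was 10.4, 11.1, 10.4 and 11.6 FPKM at the end of tamoxifen and 8.45, 8.21, 6.20 and 7.83 FPKM after sham (log2 difference -0.49, SE 0.08, limma adjusted p = 0.026). Mmp2, a matrix protease, was 28.0 to 37.9 FPKM and then 19.4 to 22.4 FPKM (-0.59, SE 0.11, adjusted p = 0.032), and Pdgfrb, the receptor of pericytes, was 16.4 to 18.3 FPKM and then 10.02 to 13.6 FPKM (-0.59, SE 0.11, adjusted p = 0.026). Not every fibroblast gene followed. Dcn, the proteoglycan decorin, was 432 to 503 FPKM at the end of tamoxifen and 440 to 510 FPKM after sham (0.01, SE 0.08, adjusted p = 0.96). Tcf21, a fibroblast transcription factor, was lower without overlap but did not pass. It was 11.3 to 16.1 and then 6.97 to 9.15 FPKM (-0.75, SE 0.19, adjusted p = 0.083). The summed level of the 20 fibroblast genes was 2030 to 2588 FPKM and then 1864 to 2134 FPKM, which overlap.

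Leaving out single hearts ended most of these calls. No collagen passed when any 1 of hearts 12, 14, 15, 16, 22, 23 and 24 was left out, and without 21 the list held 2 calls, Col5a1 among them and Col6a1 and Col6a2 not. Pdgfra passed without heart 15 or 21, Mmp2 without 21 and Pdgfrb without 12 or 14. Without both 14 and 21 no collagen passed, while the list's median was -0.42, and the adjusted p was 0.088 for Pdgfra, 0.12 for Mmp2 and 0.065 for Pdgfrb. At 4 weeks after sham the levels of Col5a1, Col6a1, Col6a2, Pdgfra and Pdgfrb were 5.64 to 9.58, 23.8 to 37.2, 22.9 to 36.5, 7.88 to 10.6 and 11.6 to 15.8 FPKM, with means above those at 2 weeks, and none of these changes passed.

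**Figure D3:**
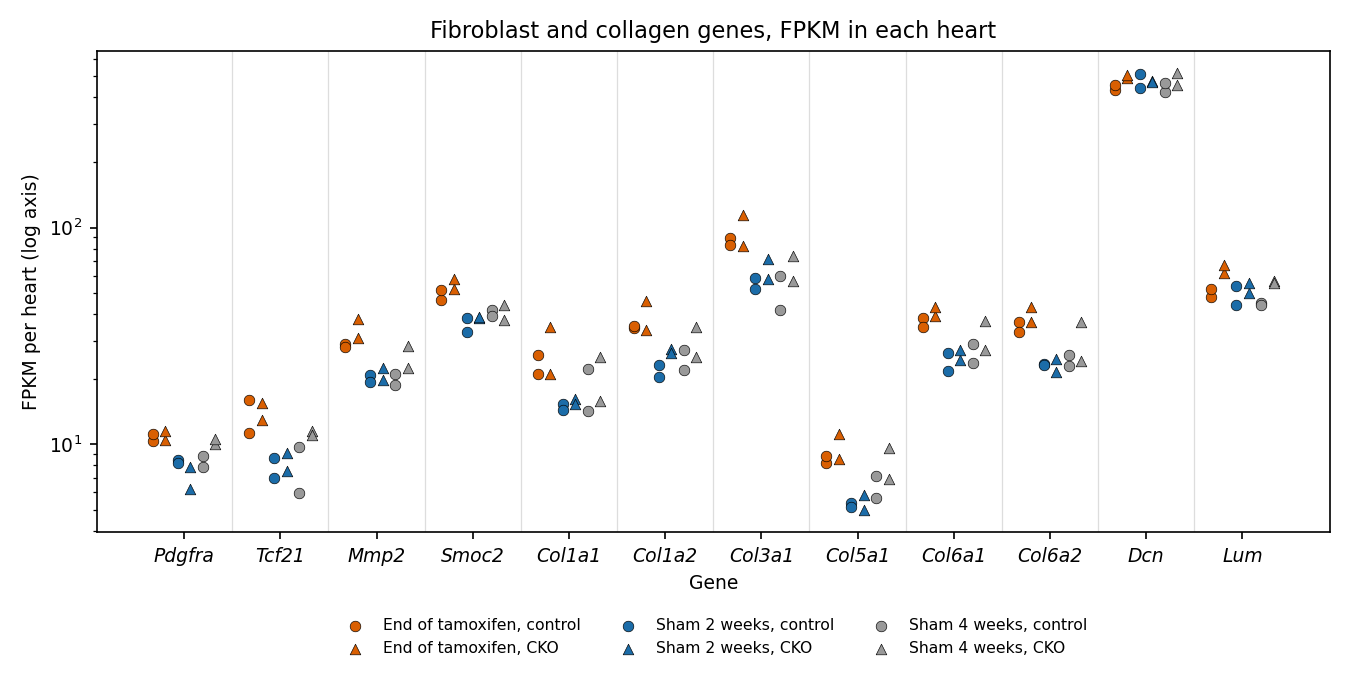
FPKM in each heart (y axis, log scale) for fibroblast and collagen genes (x axis), with symbols by stage and genotype as in the legend. Orange points (end of tamoxifen) lie above blue ones (2 weeks after sham) for Pdgfra, Mmp2, Smoc2 and the collagens, while Dcn and Lum overlap.

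Ddit4 had the largest of the called rises. Ddit4 (chr10:59949669-59951834, minus strand), an inhibitor of the growth kinase mTORC1 that stress and glucocorticoids induce, was 21.4, 21.7, 15.4 and 33.1 FPKM in hearts 22, 23, 21 and 24. After sham it was 58.9, 74.7, 76.5 and 47.5 FPKM in hearts 12, 16, 14 and 15. The stages did not overlap, with means of 22.9 ± 7.41 and 64.4 ± 13.8 FPKM (SD, n = 4 each) and a log2 difference of 1.498 (SE 0.28, limma adjusted p = 0.029). Cdkn1a, the cell cycle inhibitor p21, was 13.3, 16.0, 12.0 and 23.2 FPKM and then 35.2, 39.3, 59.8 and 24.7 FPKM (1.25, SE 0.27, adjusted p = 0.044). CKO hearts 24 and 15 came nearest to each other, at 23.2 and 24.7 FPKM. Ddit4 passed in 2 of the 8 fits without 1 heart, those without 15 and 24, and Cdkn1a in 1, that without 15. Without both 14 and 21 their adjusted p was 0.20 and 0.24.

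Of the 19 glucocorticoid-responsive genes measured, 2 were called higher (Ddit4 and Cdkn1a) and 1 lower (Dusp1), against 0.373% higher and 0.54% lower over all genes, with a median log2 difference of 0.32. Per1, a clock gene that glucocorticoids induce, was 3.45 to 10.2 FPKM and then 8.37 to 15.9 FPKM (0.91, SE 0.28, limma adjusted p = 0.14), and Lcn2, an acute phase protein, 1.34 to 8.47 FPKM and then 4.52 to 19.1 FPKM (1.61, SE 0.45, adjusted p = 0.11). Sgk1, a kinase of the same list, was not called and had a log2 difference of -0.49 (adjusted p = 0.18). Of the 24 p53 and DNA damage genes, Cdkn1a was called higher and Plk2 and Ddit4l (a relative of Ddit4, lost in all fits without 1 heart except those without 22 or 24) lower, and the median was -0.02. Gadd45a and Ccng1, with the next smallest p of that list, differed by -0.58 (adjusted p = 0.12) and 0.27 (adjusted p = 0.14).

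Rbp7 (chr4:149449687-149454978, minus strand), a retinol-binding protein of endothelial and fat cells, varied little at the end of tamoxifen and more after sham, where heart 14 was highest. It was 30.5, 35.02, 34.2 and 34.1 FPKM in hearts 22, 23, 21 and 24, and 62.2, 52.9, 94.7 and 66.1 FPKM in hearts 12, 16, 14 and 15, a log2 difference of 1.00 (SE 0.14, limma adjusted p = 0.0071). Fam107a, an actin-associated stress protein, was 0.628, 0.558, 0.840 and 0.861 FPKM and then 2.54, 2.16, 2.79 and 1.99 FPKM (1.23, SE 0.17, adjusted p = 0.0071). Both passed when any 1 heart was left out, and neither stage overlapped the other. Neither passed without both 14 and 21 (adjusted p = 0.065 for Rbp7 and 0.072 for Fam107a) or in the fit of the 8 hearts alone (0.084 and 0.065). At 4 weeks after sham Rbp7 was 58.5 to 73.3 FPKM and Fam107a 1.56 to 3.06 FPKM, all above the end-of-tamoxifen hearts. Rtn4r, the Nogo receptor, was 1.33 to 3.32 FPKM and then 5.06 to 8.92 FPKM (1.43, SE 0.29, adjusted p = 0.038), and at 4 weeks 9.11 to 22.4 FPKM, a change from 2 weeks that did not pass (0.78, adjusted p = 0.26).

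Ifi205, an interferon-inducible gene of a family of near copies, whose reads the counting could split, was 3.69 to 6.41 FPKM and then 10.7 to 15.7 FPKM (log2 difference 1.18, SE 0.18, limma adjusted p = 0.011, lost without heart 22). The 42 measured genes of the interferon response list, which do not include a called gene, had a median of -0.31. Mmp3, a matrix protease, was 1.78 to 2.94 FPKM and then 3.94 to 7.79 FPKM (0.93, SE 0.19, adjusted p = 0.042), and Olfml2b, an extracellular matrix protein, 3.29 to 7.05 FPKM and then 7.69 to 11.5 FPKM (0.88, SE 0.15, adjusted p = 0.026). These 2 genes of the matrix, not members of the matrix list, were higher while the called collagens were lower. Ccrn4l (now Noct), a rhythmically expressed phosphatase, was 5.96 to 8.70 and then 9.92 to 13.4 FPKM (0.72, SE 0.14, adjusted p = 0.031).

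Leaving out single hearts ended many of the other calls. Of the fits without 1 heart, Rtn4r passed only in that without 24, Mmp3 only without 15, Olfml2b without 15 or 24, and Ccrn4l without 12 or 24. Of genes described next, Kcna5 passed only without 24, Myom2 only without 15, Hsp90aa1 only without 14, Ifrd1 without 15 or 21, Eif5 without 12 or 22, and Dnaja1, Fabp5, Kcnj2 and Rplp0 in 0 of the 8. Adjusted p in these fits rose to 0.14 for Rtn4r, 0.15 for Mmp3, 0.15 for Hsp90aa1 and 0.17 for Kcnj2. Without both 14 and 21 none of the genes named in this paragraph passed, nor did Ifi205 (adjusted p = 0.10).

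**Figure D4:**
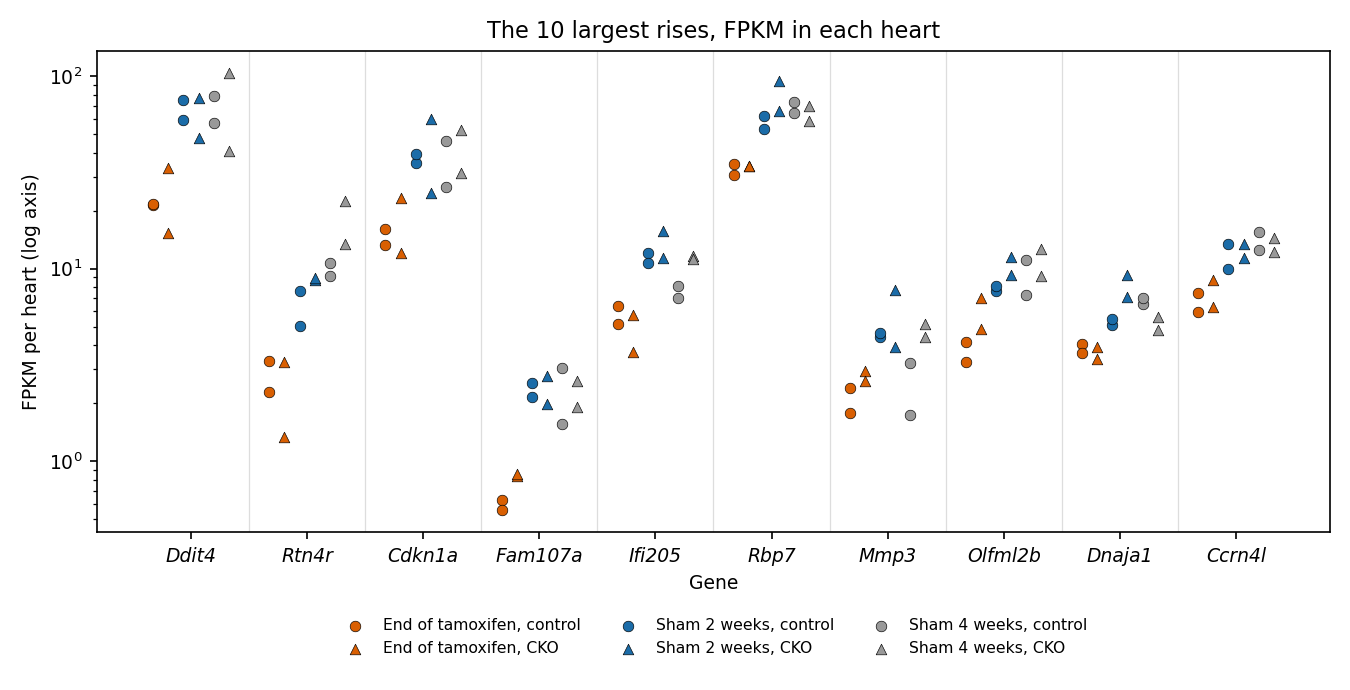
FPKM in each heart (y axis, log scale) for the 10 largest called rises by the naming rule (x axis), with symbols by stage and genotype as in the legend. Blue points (2 weeks after sham) lie above orange ones (end of tamoxifen) in all 10 genes, and every grey point (4 weeks) does too except for Mmp3.

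Myocyte channel and sarcomere genes changed in both directions. Kcna5, a potassium channel, was 5.32 to 7.81 FPKM and then 9.84 to 13.2 FPKM (log2 difference 0.71, SE 0.14, limma adjusted p = 0.031). Kcnj2, the main inward rectifier channel of ventricular muscle, was 16.1 to 19.6 FPKM and then 12.0 to 15.1 FPKM (-0.46, SE 0.10, adjusted p = 0.045), and Myom2, a protein of the sarcomere M band, 382 to 469 and then 189 to 312 FPKM (-0.75, SE 0.14, adjusted p = 0.032). In the list of 32 genes for adult contraction and ion handling these 3 passed, 1 higher and 2 lower. Over all genes 0.373% were called higher and 0.54% lower. The list's median was 0.06, which turned to -0.02 under quantile normalization. None of 22 foetal and overload genes passed, and their median was 0.09.

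Chaperones and ribosomal protein genes had small shifts toward higher levels. Hsp90aa1, the inducible HSP90, was 14.4, 12.9, 12.9 and 16.1 FPKM in hearts 22, 23, 21 and 24 and 14.8, 17.9, 24.8 and 35.02 FPKM in hearts 12, 16, 14 and 15 (log2 difference 0.63, SE 0.13, limma adjusted p = 0.041). The CKO sham hearts held the 2 highest values, the stages overlapped over the 8 hearts, and the change was 0.25 in controls and 1.01 in CKO hearts, a difference with an unadjusted p of 0.011 and an adjusted p of 1. Dnaja1, an HSP70 co-chaperone, was 3.41 to 4.05 FPKM and then 5.12 to 9.21 FPKM (0.73, SE 0.15, adjusted p = 0.041). Of 22 cytosolic heat shock genes these 2 passed, where 0.373% of all genes were called higher. At an unadjusted p under 0.05, 13 were higher (8.17% of all genes were) and 1 lower (7.46%), and the median was 0.22. Of 53 cytosolic ribosome genes 22 were higher and 0 lower at the unadjusted threshold, and the median was 0.18. Rplp0, a protein of the ribosomal stalk and among those that passed, was 275 to 295 FPKM and then 329 to 363 FPKM (0.27, SE 0.05, adjusted p = 0.036). Ribosomal protein genes have many near-identical copies, so their levels are uncertain. Fabp5, a fatty acid carrier, was 26.2 to 32.9 and then 39.2 to 47.9 FPKM (0.54, SE 0.11, adjusted p = 0.038), Ifrd1, a transcriptional co-regulator, 14.7 to 22.9 and then 25.7 to 35.9 FPKM (0.63, SE 0.11, adjusted p = 0.026), and Eif5, a translation initiation factor, 28.9 to 34.8 and then 39.9 to 50.1 FPKM (0.53, SE 0.10, adjusted p = 0.026).

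**Figure D5:**
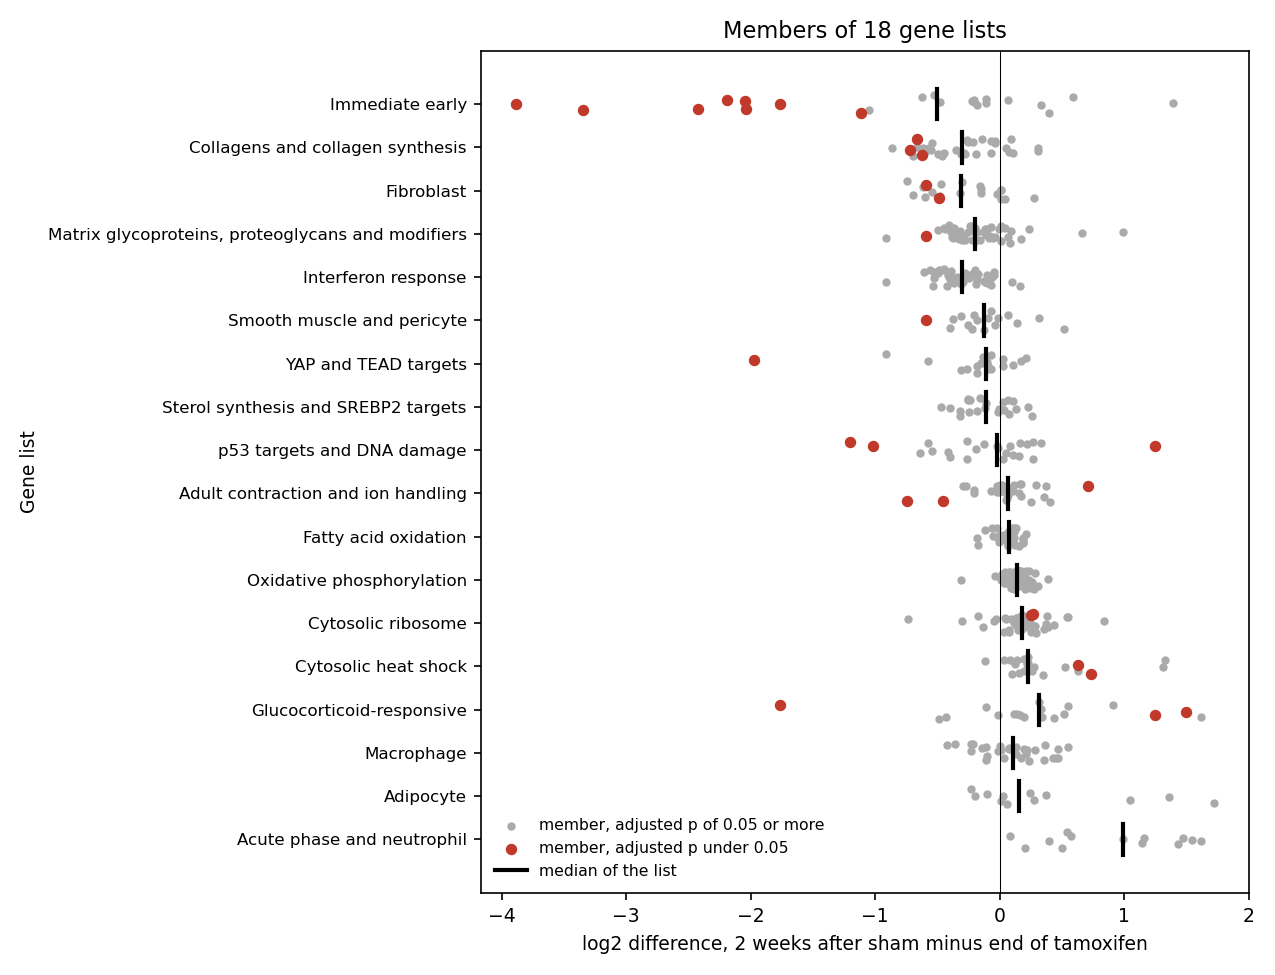
Log2 difference (x axis, 2 weeks after sham minus end of tamoxifen) of each measured member of 18 gene lists (y axis), with members past an adjusted p of 0.05 in red and the median of each list as a black bar. Called immediate early genes reach from -1.11 to -3.88, called collagens lie between -0.63 and -0.72, and the median of the acute phase list is 0.99 with no member called.

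Within 1 genotype each stage had 2 hearts. In controls 3 genes passed (0.0238%), all lower: Snora3, Fos (log2 difference -4.38) and Plk2 (-1.24), with 982 at an unadjusted p under 0.05. In CKO hearts 0 passed by limma, with 1428 at an unadjusted p under 0.05, and the smallest adjusted p was 0.062, for Plk2. The difference between the genotypes' changes passed for 2 genes (0.0159%), 1 with a positive difference, CKO minus control (Snora3, 0.00794%), and 1 with a negative one (B3gnt8, 0.00794%), with 341 at an unadjusted p under 0.05. The 8 called immediate early genes had differences of 0.27 to 2.43 between the genotypes, CKO minus control, with adjusted p of 1 and a smallest unadjusted p of 0.085. Heart 14, whose early genes were high, is a CKO sham heart.

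Between the sham hearts at 4 and at 2 weeks 0 of 12589 genes passed by limma, with 1894 at an unadjusted p under 0.05. The smallest adjusted p was 0.13. Zbed3, a zinc finger gene, was 5.27 to 6.25 FPKM at 2 weeks and 8.45 to 8.79 FPKM at 4 weeks (log2 difference 0.57), and Bcl6, a transcriptional repressor, 4.33 to 8.24 and then 10.1 to 13.1 FPKM (1.06, adjusted p = 0.13). At the end of tamoxifen they were 4.53 to 6.22 and 4.41 to 6.53 FPKM, and between that stage and 2 weeks they differed by -0.01 each. This comparison shares the 2-week sham hearts with the one above.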

How the data were processed

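Messenger RNA of 20 hearts was sequenced from TruSeq Stranded mRNA libraries of RNA extracted by miRNeasy Mini, per the labels' protocols. Per the submitters' processing notes, the authors used TopHat2 2.1.1, Bowtie2 (version not given), Cuffdiff 2.2.1 and build mm10. The deposited values are FPKM of 23284 genes in each heart (17793 were above 0 in some heart). Whether counting used strand is not stated. Absolute depth is unknown. Relative depth was estimated from 2164 genes, where 95.1% of 8257 low values lay within 5% of a whole multiple of the lowest step.

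The 12589 genes whose mean over all hearts reached 0.5 FPKM were analysed as log2(FPKM + 0.5), which understates changes of low genes. Limma 3.58.1 under R 4.3.3, with a trended prior, fitted 10 group means with 10 residual degrees of freedom, and every adjusted p is from this model with Benjamini-Hochberg adjustment over all genes. P-values measure the spread between these hearts. On simulated data for the main comparison (12589 genes, 200 changed), the fit recovered 91% of 2-fold and 98% of 4-fold changes. Of its 198 calls, 9 were false. The simulation drew each gene independently, with the same spread in all groups, and changed only genes above about 1 FPKM. The called early genes, by contrast, varied together between hearts. Whether these rates hold for the measured hearts was not tested. The naming rule took the 15 largest called rises and falls with a mean of at least 1 FPKM and no overlap of the stages within a genotype, up to 5 members of each list with at least 3 called, the genes with smallest p where few or none passed, and Wnt5a and Esr1; clone-named genes, 3 of those called, were passed over. Genes outside the rule, such as Mmp2, Pdgfra, Pdgfrb, Tcf21, Dcn, Rplp0, Nr4a1, Nr4a3, Atf3, Egr2, Ctgf and those of the closing section, were chosen after their values were seen. The comparison, gene lists and rule were chosen with earlier results of these data known. Positions are from GENCODE M21 (the same assembly as mm10) and promoters from RefSeq. Alternatives were pseudocounts of 0.1 and 1, quantile normalization, median-ratio scaling, a filter of 3 FPKM or none, no trend, only the groups compared, leaving out each heart, and leaving out hearts with Myl7 of at least 10 FPKM; leaving out hearts with Myl7 of at least 100 FPKM and a Myl7 covariate were added after the data were seen. Figures used Python 3.11.15 and matplotlib 3.10.9. The result of 1 of the 115 called genes is not reported here.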

Additional observations from a re-analysis of the deposited data

Results flagged for a closer look

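Snora3 and B3gnt8 were singled out because the change from the end of tamoxifen to 2 weeks after sham differed between the genotypes in the limma interaction test. Snora3 (chr7:109520120-109520251, plus strand), a small nucleolar RNA gene, was 59.5 and 57.3 FPKM in end-of-tamoxifen controls 22 and 23 and listed at 0 in the other 18 hearts. The difference of the changes, CKO minus control, was 6.88 on the log2 scale (limma adjusted p = 6.5e-09). The gene lies inside Rpl27a (chr7:109519147-109522367), overlaps annotated exons of it, and Rpl27a itself was 14.4 to 26.7 FPKM over the 20 hearts, so the assignment of reads between the 2 is uncertain.

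B3gnt8 (chr7:25626654-25635100, plus strand), which encodes a glycosyltransferase, was 1.23 and 1.40 FPKM in end-of-tamoxifen controls and 2.22 and 2.30 in sham controls. In CKO hearts it was 2.23 and 2.67 FPKM and then 1.14 and 0.690. The change was 0.61 in controls and -1.07 in CKO hearts, and the difference between them was -1.68 (limma adjusted p = 0.033). The call was lost with log2 Myl7 as a covariate and in the fit of the compared hearts alone. It was kept under the other pseudocounts, without the filter, without the trend and under both other normalizations. Its sign held when any single heart was left out, but the call was lost in some of those fits. At 4 weeks after sham all 4 hearts lay between 1.94 and 2.19 FPKM. Rab3il1, Dnase1, Tmem14c and Tpra1, with the next smallest p for this difference, had adjusted p of 0.89, 0.89, 1 and 1.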

How the results depend on the processing

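Pseudocounts of 0.1 and 1 called 118 and 119 genes, median-ratio scaling 117, quantile normalization 94 and a filter of 3 FPKM 124, against 115 reported, and 81 to 115 of these were the reported genes. No filter gave 50, no trend 65, only the groups compared 5, leaving out 1 heart 16 to 49, leaving out hearts 14 and 21 24, and the Myl7 covariate 76. For controls alone (3 reported) no trend gave 1, leaving out 1 heart 1 to 7, leaving out hearts with Myl7 of at least 10 FPKM 1, leaving out hearts 14 and 21 5 and the covariate 1. For CKO hearts (0 reported) no filter gave 4, only the groups compared 2, leaving out 1 heart 1 to 5 and leaving out hearts 14 and 21 8. For the difference between genotypes (2 reported) the filter of 3 FPKM gave 1, leaving out 1 heart 1 to 7, leaving out hearts 14 and 21 8 and the covariate 1. For sham at 4 against 2 weeks (0 reported) no filter gave 2, only the groups compared 1, leaving out 1 heart 0 to 4, leaving out hearts with Myl7 of at least 10 FPKM 4 and of at least 100 FPKM 3. Immediate early genes called lower (8 reported) were 5 with no filter, 5 with no trend, 0 with only the groups compared and 3 to 7 with 1 heart left out. Collagens called lower (3 reported) were 0 with no filter, 0 with only the groups compared, 0 to 2 with 1 heart left out, 0 without hearts 14 and 21 and 1 with the covariate. Esr1 was -0.00101 under quantile normalization and -0.108 to 0.255 with 1 heart left out, below 0 without heart 15 or 22. Wnt5a was -0.0859 to 0.126 with 1 heart left out, below 0 without heart 15, 16, 21 or 23, and -0.0341 without 14 and 21; neither gene was called in these fits. The cause of these shifts was not tested. Fits that leave a group with 1 heart assume that it varies like the other groups. Leaving out all hearts with Myl7 of at least 10 FPKM removes both CKO hearts at the end of tamoxifen, so the comparisons that need them were not run. No paired analysis was possible because the heart numbers in the labels occur once each.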

Other observations

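Acute phase and neutrophil genes were higher in value 2 weeks after sham in every one of 13 measured members, with a median log2 difference of 0.99, but 0 passed in limma and 5 were higher at an unadjusted p under 0.05. Over all genes tested 8.17% were higher and 7.46% lower at that threshold. Serpina3n, a protease inhibitor of the acute phase, was 5.39 to 11.5 FPKM at the end of tamoxifen and 12.0 to 20.7 FPKM after sham (1.14, SE 0.32, adjusted p = 0.11). Lrg1, a secreted glycoprotein, was 20.9 to 27.7 and then 29.5 to 40.8 FPKM (0.50, SE 0.14, adjusted p = 0.11). S100a8 and S100a9, which neutrophils carry, were 117 and 141 FPKM in sham heart 12, against 13.1 to 29.4 and 14.1 to 51.4 FPKM in the other 3 sham hearts and 5.49 to 15.4 and 4.06 to 22.0 FPKM at the end of tamoxifen. The summed list was 48.5 to 81.5 FPKM and then 86.0 to 361 FPKM. Timp1, an inhibitor of matrix proteases, was 3.99 to 8.85 and then 8.36 to 15.7 FPKM (0.99, SE 0.28, adjusted p = 0.11).

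Interferon response genes lay on the lower side, 40 of 42 with a negative log2 difference and a median of -0.31, yet 0 passed and 1 was lower at an unadjusted p under 0.05. Ifit3, an interferon-induced antiviral protein, was 7.44 to 11.4 FPKM and then 2.52 to 6.28 FPKM (-0.91, SE 0.37, limma adjusted p = 0.24). For Ifit2, Mx1, Stat2 and Oasl2 sham hearts 12 and 14 were higher than 16 and 15. Respiratory chain genes had a median of 0.14 over 71 members, which was 0.04 under quantile normalization, with 0 called and 24 higher unadjusted (all genes 8.17%). Atp5e, a subunit of ATP synthase, had the smallest p of them (0.28, SE 0.06, adjusted p = 0.063).

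Clock genes had 0 of 22 called, with 6 lower (all genes 7.46%) and 1 higher (all genes 8.17%) unadjusted. Bhlhe41 and Per3, repressors of the clock, differed by -0.51 (SE 0.16, limma adjusted p = 0.14) and -0.67 (SE 0.24, adjusted p = 0.20), and Per1 by 0.91. Times of day are not given in the labels. Of the 9 oestrogen-responsive genes measured, 0 passed, with 1 lower unadjusted and a median of 0.03. Sterol synthesis genes had 0 of 22 called, 4 lower unadjusted and a median of -0.11. Adipocyte genes had 0 of 12 called and 4 higher unadjusted; Car3 was 0.107 to 2.104 FPKM and then 2.21 to 7.49 FPKM (1.72, SE 0.40, adjusted p = 0.060), and Adipoq, which defines fat cells, was at most 2.45 FPKM. Of 40 cell cycle genes 0 passed, with 2 higher and 1 lower unadjusted and a median of -0.03.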
